A study of Mus musculus with 8 samples.

Results

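Pax6, a transcription factor gene of eye, brain and pancreas development, is transcribed from several promoters, and the contacts of its P0 and P1 promoters were compared within the same libraries. All 8 libraries of the series entered the comparison. Of the 40 deposited files, the 16 that hold the P0 and the P1 viewpoint were used, 2 per library. Each file lists the reads that a chromosome conformation capture assay placed on restriction fragments in contact with the viewpoint, the promoter chosen as bait. The question was which stretches of the locus were contacted more from P0 or more from P1, over all 8 pairs and in each cell type.

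Genomic DNA of 4 mouse cell types was used, as 2 libraries per type. The embryonic stem cells (ES) were grown on gelatin with serum and leukemia inhibitory factor. Neural stem cells (NSC) came from cortex of embryos at E14.5, and the cortical neurons (neuron) were differentiated from neuronal stem cells of the same stage. N2a is a mouse neuroblastoma line, grown in DMEM with 10% fetal bovine serum. No genotype change or treatment is named for any group. The labelled cell types could not be checked against marker genes, since the files hold DNA contacts and no expression. The labels do not say that the replicates are separate cultures, so each p-value measures the spread between these libraries, which may be technical.

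P0 and P1 are alternative promoters of Pax6, used to different extents in different tissues. Pax6 lies among long-range regulatory elements, several of them inside the introns of the neighbouring gene Elp4, which encodes a subunit of the Elongator complex. On the other side lies the long noncoding RNA gene Paupar, transcribed in the opposite direction and known in N2a cells to take part in regulating neural genes, within the span of the antisense transcript Pax6os1. Contact frequency falls steeply with distance from a viewpoint, so baits a few kilobases apart differ in how close they are to each fragment.

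The P0 viewpoint was placed at chr2:105667489-105669388 of mm10 and the P1 viewpoint at chr2:105674040-105676188, with centres 6.676 kb apart. These stretches were inferred from the data, as the gap between the nearest listed fragments on both sides of each centre. Pax6 runs toward higher coordinates, Pax6os1 and Paupar lie at lower coordinates and Elp4 at higher ones. RefSeq (GRCm38.p6, the assembly of mm10) gives a promoter window for each of 2 Pax6 start sites near these baits. They are shown because the first lies at the P0 bait and the second lies inside the window higher from P1 that had the smallest p. Capitals mark GATC, the motif at which all 180 fragment boundaries that fell in chromosome 2 promoter windows lay; it is its own reverse complement, so both strands are covered. Of 32851 RefSeq promoter windows of 300 bases, 15758 (48%) hold GATC.
Pax6 start at P0, plus strand, chr2:105668646-105668945: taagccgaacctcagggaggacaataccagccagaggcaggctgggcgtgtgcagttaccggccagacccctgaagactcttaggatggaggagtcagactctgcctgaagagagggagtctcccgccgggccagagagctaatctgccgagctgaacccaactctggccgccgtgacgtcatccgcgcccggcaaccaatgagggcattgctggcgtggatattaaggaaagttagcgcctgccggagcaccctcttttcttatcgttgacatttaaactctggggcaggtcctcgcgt
Pax6 inner start, plus strand, chr2:105682213-105682512: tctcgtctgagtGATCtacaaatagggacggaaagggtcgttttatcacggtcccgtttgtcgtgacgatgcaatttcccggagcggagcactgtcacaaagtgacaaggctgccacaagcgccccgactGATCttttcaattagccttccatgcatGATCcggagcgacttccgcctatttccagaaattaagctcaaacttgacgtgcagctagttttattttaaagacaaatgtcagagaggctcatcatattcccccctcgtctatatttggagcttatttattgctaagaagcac
The window at P0 holds 0 GATC sites and the inner window holds 3, with its start site 14.0 kb from the P0 centre and 7.35 kb from the P1 centre.

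The files listed 21928 (NSC replicate 1, P0) to 129499 reads (ES replicate 1, P0), of which 44.8% to 71.6% lay on chromosome 2. The values below are shares of the chromosome 2 reads beyond 5 kb of either centre, of which the files held 10701 to 59018. Whether duplicate reads were removed is not stated, so counting intervals cover counting error only. Replicates of a cell type differed by far more than counting noise, with a chi-square per degree of freedom of 10.4 to 18.7 over windows. A promoter and its own bait cannot be told apart, since each promoter was read with 1 bait.

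From P0, contacts were spread almost evenly over both sides of the locus, and from P1 they leaned toward higher coordinates, where the Pax6 gene body and Elp4 lie. Of the reads within 1 Mb, 53.4% ± 2.79 (SD, n = 8 libraries) lay at lower coordinates from P0 and 39.6% ± 6.48 from P1. The share was lower from P1 in every library, by 4.63 to 22.1 percentage points. Measured from each bait's own centre, over a narrower range of distances, the lower side held 50.2% ± 3.30 from P0 and 43.6% ± 6.85 from P1. The stretch left out around both centres cut into that range on the lower side for P1 and on the higher side for P0. On that measure ES replicate 2 went the other way, with 53.2% from P0 and 55.4% from P1. These side shares are given as a description with no test. The share of chromosome 2 reads that fell within 1 Mb at all was 54.8% ± 5.88 from P0 and 52.4% ± 6.62 from P1, higher from P1 in 2 of 8 pairs (mean log2 ratio of P1 over P0 -0.07, exact two-sided sign permutation p = 0.047). That call was lost without the pairing (exact permutation p = 0.446).

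**Figure D1:**
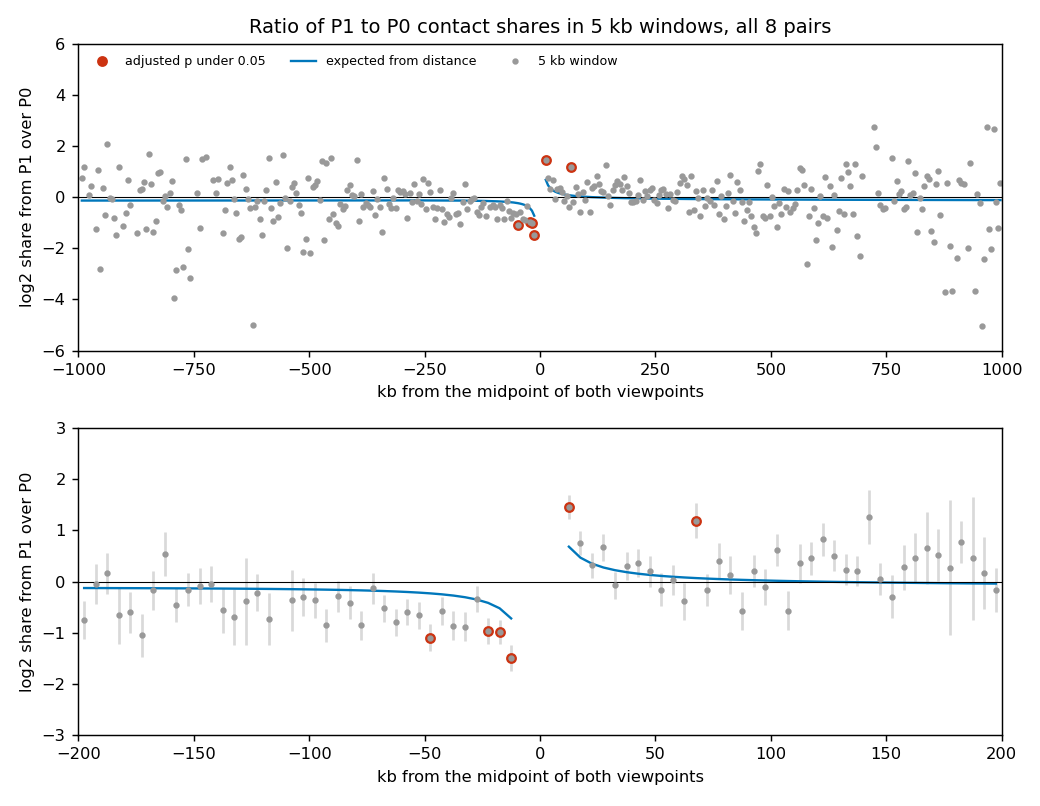
Fitted log2 ratio of P1 over P0 in 5 kb windows of all 8 pairs against distance in kb from the midpoint of both centres, over the 2 Mb (top) and within 200 kb with standard errors (bottom). Red dots mark the 6 called windows and the blue line the ratio a straight distance line per file gives. The 4 red dots below 0 lie at lower coordinates and the 2 above 0 at higher coordinates, and windows scatter more widely far from the promoters.

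The shares were then compared by distance. Bands of distance on each side of the midpoint between the centres were compared with an exact two-sided sign permutation test over the 8 pairs, adjusted over 10 bands by Benjamini-Hochberg; the smallest p that 8 pairs allow is 0.0078. 5 of the 10 bands (50%) passed an adjusted p of 0.05.
The band 10 to 50 kb toward lower coordinates, within Pax6os1 and including Paupar, held 6.27%, 7.96%, 7.25%, 10.0%, 7.70%, 9.63%, 8.90% and 10.96% of reads from P0, and 4.41%, 5.45%, 4.57%, 3.60%, 4.90%, 3.29%, 5.34% and 5.58% from P1, for replicates 1 and 2 of ES, NSC, neuron and N2a in that order. Every P0 value lay above every P1 value, with means of 8.59% and 4.64% (log2 -0.89 ± 0.41, SD, 0 of 8 pairs higher from P1, exact permutation adjusted p = 0.020).
The mirror band 10 to 50 kb toward higher coordinates, in the Pax6 gene body and the adjoining end of Elp4, held 5.78%, 6.27%, 5.95%, 5.55%, 6.28%, 4.81%, 4.32% and 4.83% from P0, and 6.93%, 7.43%, 10.9%, 10.8%, 9.49%, 10.6%, 8.36% and 7.91% from P1, in the same order. Here every P1 value lay above every P0 value, with means of 5.47% and 9.06% (log2 0.72 ± 0.33, 8 of 8 pairs, exact permutation adjusted p = 0.020). The ES pairs showed the smallest excess, 0.25 on the log2 scale against 0.83 to 0.92 in the other cell types. That difference between cell types did not pass its own test (exact permutation of the cell type labels, adjusted p = 0.476).

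Farther out on the lower side the preference for P0 was smaller. The band at 50 to 100 kb held 5.49% from P0 and 3.78% from P1 (log2 -0.56), and that at 100 to 200 kb held 3.82% and 3.14% (log2 -0.30), each lower from P1 in all 8 pairs with an exact permutation adjusted p of 0.020. On the higher side, the band at 50 to 100 kb did not pass the test (2.55% and 2.73%, log2 0.11, adjusted p = 0.379). The band at 100 to 200 kb, inside Elp4, did, with 3.49% from P0 and 4.33% from P1 (log2 0.29, 7 of 8 pairs, exact permutation adjusted p = 0.047). The 4 bands beyond 200 kb did not pass, with mean log2 ratios of -0.14, -0.12, 0.01 and -0.06. No band passed the test between cell types (0 of 10, 0%; 1 at an unadjusted exact permutation p under 0.05), where the smallest p that the 8 labels allow is 0.0095. A single band at that p could not pass after adjustment over 10 bands, so this 0 does not show that the cell types were alike.

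**Figure D2:**
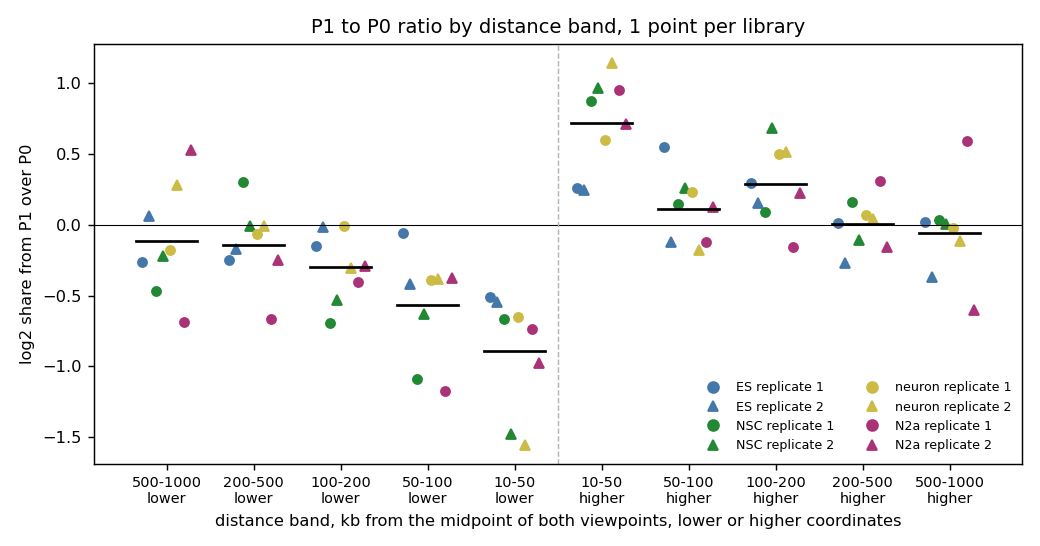
Log2 ratio of the P1 share over the P0 share in each distance band, in kb from the midpoint of both centres toward lower or higher coordinates, with 1 point per library and the mean as a bar. All 8 points lie below 0 in the 3 lower bands within 200 kb and above 0 in the band 10 to 50 kb higher, and the outer bands straddle 0.

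The baits' own distance to the bands moves with these differences, because each band is nearer to 1 of the centres. When bands were measured from each bait's own centre, 2 of 10 bands passed, both on the lower side (10 to 50 and 100 to 200 kb, exact permutation adjusted p = 0.039). The stretch left out around both centres then cut the near end of the 10 to 50 kb bands unevenly. It shortened the lower band for P1 only and the higher band for P0 only. After a straight line of reads on distance was taken out of each file, 0 of 10 passed (4 at an unadjusted exact permutation p under 0.05). The log2 ratios were then -0.43 at 10 to 50 kb lower, -0.38 at 50 to 100 kb lower and 0.30 at 100 to 200 kb higher, each with an exact permutation adjusted p of 0.078.

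The 2 Mb around the promoters was next divided into 400 windows of 5 kb. Of these, 4 within 5 kb of a centre were left out, 23 had too few reads, and 373 were tested with edgeR's quasi-likelihood test, with library as the pair. The median window had between 7 and 40 reads, depending on the file, and the fitted coefficient of variation was 75.0%. The median log2 ratio was -0.13 with chromosome 2 totals and -0.01 with TMM factors, so a window is read against that shift. Over all 8 pairs, 6 of 373 windows (1.61%) passed an adjusted p of 0.05, 4 of them higher from P0 (1.07%) and 2 higher from P1 (0.536%). At an unadjusted p under 0.05 there were 42, and DESeq2 called 18, of which 10 were higher from P0.

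3 of the 4 windows that preferred P0 adjoined each other at chr2:105646776-105661775, next to the P0 bait in Pax6os1. The window nearest to P0, chr2:105656776-105661775, also overlaps Paupar. It held 1.20%, 1.18%, 1.41%, 1.66%, 1.44%, 1.53%, 1.32% and 2.19% from P0 and 0.674%, 0.732%, 0.798%, 0.471%, 0.545%, 0.451%, 0.162% and 0.674% from P1, for replicates 1 and 2 of ES, NSC, neuron and N2a. All P0 values lay above all P1 values (log2 -1.49, SE 0.25, edgeR adjusted p = 7.4e-07). The middle window, chr2:105651776-105656775, was the most contacted of the 3, with 1.40% to 2.78% from P0 (median 2.43%) and 0.636% to 2.59% from P1 (median 1.03%). Those ranges overlapped through N2a and NSC replicate 1, the latter being the pair that was higher from P1 (log2 -0.99, SE 0.23, edgeR adjusted p = 0.0028). The outer window, chr2:105646776-105651775, held 0.764% to 1.57% from P0 and 0.367% to 0.710% from P1, without overlap (log2 -0.97, SE 0.26, edgeR adjusted p = 0.011).

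A separate window 44.2 kb below P0, chr2:105621776-105626775 in Pax6os1, preferred P0 as well. From P0 it held 0.596% and 0.778% in ES, 1.36% and 1.62% in NSC, 0.583% and 1.11% in neuron, and 0.787% and 1.21% in N2a. From P1 it held 0.644% and 0.656%, 0.316% and 0.582%, 0.350% and 0.555%, and 0.181% and 0.483% in the same order. NSC carried the highest P0 values, and ES replicate 1 was the pair in which P1 was higher (log2 -1.10, SE 0.26, edgeR adjusted p = 0.0028; 0.052 without NSC replicate 2). The 2 windows between it and the Paupar cluster that ranked next, chr2:105631776-105636775 and chr2:105636776-105641775, had log2 ratios of -0.87 and -0.88 and did not pass (edgeR adjusted p = 0.075). In all, 8 of 8 windows within 50 kb on the lower side and 10 of 10 at 50 to 100 kb had a log2 ratio below 0. Over the whole 2 Mb, which includes them, it was 205 of 373. The 8 include the called windows. A straight distance line per file also gives ratios below 0 there, with medians of -0.33 and -0.18. On the higher side, 7 of 8 windows within 50 kb and 5 of 10 at 50 to 100 kb were above 0. The cause of these signs was not tested.

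Of the 2 called windows higher from P1, the one of smaller p was in the Pax6 gene body, chr2:105681776-105686775, the window that holds the inner start site printed above. It held 1.58%, 1.26%, 0.906%, 1.05%, 1.32%, 1.04%, 0.705% and 0.626% from P0 and 1.71%, 2.85%, 5.40%, 3.60%, 3.19%, 3.14%, 2.15% and 1.80% from P1, in the same order of libraries. Windows with few reads far from the promoters had larger ratios and did not pass, up to a log2 ratio of 2.76 (SE 1.16) at chr2:106636776-106641775. The files did not overlap in the gene body window, though ES replicate 1 came close with 1.58% and 1.71% (log2 1.46, SE 0.23, 8 of 8 pairs, edgeR adjusted p = 1.2e-07). NSC replicate 1 had the highest P1 value. The next window in the gene body, chr2:105686776-105691775, held 1.39% ± 0.397 (SD, n = 8) from P0 and 2.29% ± 0.393 from P1 and fell just short (log2 0.76, edgeR adjusted p = 0.051).

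The other window higher from P1 lay in Elp4, 70.8 kb above P0, at chr2:105736776-105741775. It held 0.173%, 0.160%, 0.0561%, 0.116%, 0.309%, 0.224%, 0.110% and 0.149% from P0 and 0.264%, 0.5004%, 0.340%, 0.303%, 0.528%, 0.124%, 0.444% and 0.413% from P1. 7 of 8 pairs were higher from P1, neuron replicate 2 was not, and the ranges overlapped (log2 1.19, SE 0.34, edgeR adjusted p = 0.032). Its neighbours on either side had log2 ratios of -0.39 and -0.17. On the grid moved by 2.5 kb, the window that starts in its middle and shares only its upper part had a ratio of -0.13. The moved window over its lower part was not looked up. The call was lost when any library except ES replicate 1 or neuron replicate 2 was left out (edgeR adjusted p 0.072 to 0.133).

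**Figure D3:**
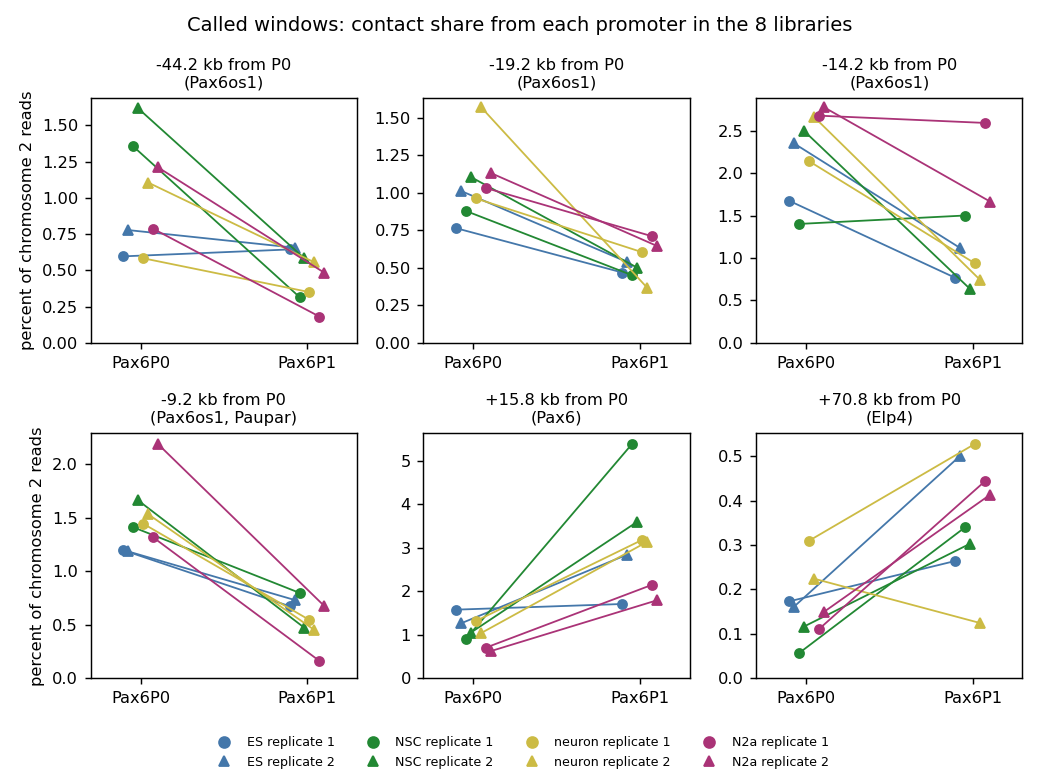
Share of chromosome 2 reads from P0 and from P1 in the 6 called windows, with a line joining the files of 1 library. The 4 windows at lower coordinates slope down from P0 to P1 and the 2 at higher coordinates slope up. The exceptions are 1 pair each in the windows 44.2 kb and 14.2 kb below P0 and 1 pair in the Elp4 window.

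How much of a window's difference a distance line would give was computed for each call. From the straight lines fitted per file, whose slopes on log distance were -0.83 to -0.99, the expected log2 ratio was -0.72 at the Paupar window, -0.52 and -0.42 at the windows 14.2 and 19.2 kb below P0, 0.68 at the Pax6 gene body window, -0.23 at the window 44.2 kb below P0 and 0.07 at the Elp4 window. With those lines as an offset, 0 of 373 windows passed in edgeR (38 at an unadjusted p under 0.05). The log2 ratios were then -0.77 at the Paupar window, 0.78 at the Pax6 gene body window, -0.87 at the window 44.2 kb below P0 and 1.13 at the Elp4 window, each with an edgeR adjusted p of 0.122. The windows 14.2 and 19.2 kb below P0 had -0.47 and -0.55 (edgeR adjusted p = 0.466 and 0.426). With a curved line per file, chosen after seeing the data, 0 windows passed in edgeR (35 at an unadjusted p under 0.05), and the Pax6 gene body window, where the curve expects 0.99, had 0.47.

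The calls also moved with how reads were counted. Whether a read was counted in several adjacent fragments is not stated. With the fewest reads that could give each run of fragments 0 of 373 windows passed in edgeR (24 at an unadjusted p under 0.05), with log2 ratios of -1.12 at the Paupar window and 0.99 at the Pax6 gene body window. With each listed fragment counted once, whatever its reads, 0 passed (4 at an unadjusted p under 0.05), and the ratio at the Pax6 gene body window was -0.085, with -0.060 for the band 10 to 50 kb higher. That count sees only which fragments were listed. It cannot show a preference where a fragment was listed from both baits with unlike reads.

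Reads were also summed over gene bodies, without the stretch within 5 kb of either centre. The first part of Pax6 and the end of Pax6os1 at P0 fall in that stretch and were not counted. Of 28 genes with enough reads, 0 (0%) passed, against 8 at an unadjusted exact permutation p under 0.05. With 28 genes, the smallest exact p is adjusted to 0.055 when 4 genes share it. Those 4 were Pax6, Paupar, Pax6os1 and Depdc7. The Pax6 body held 4.25% ± 0.901 (SD, n = 8) from P0 and 8.83% ± 1.67 from P1, from 3.16% to 5.57% against 7.26% to 12.1%, without overlap (log2 1.06, 8 of 8 pairs). The Paupar body held 1.37% ± 0.258 and 0.502% ± 0.187 (log2 -1.56), and Pax6os1, which contains it, 17.3% ± 2.62 and 9.81% ± 0.931 (log2 -0.81), each lower from P1 in all 8 pairs. Depdc7, far toward lower coordinates, held 0.0828% ± 0.0355 and 0.144% ± 0.0610 (log2 0.80, 8 of 8 pairs). Elp4 held 9.35% ± 1.07 from P0 and 11.03% ± 1.92 from P1, higher from P1 in 7 of 8 pairs (log2 0.23, exact permutation adjusted p = 0.073). The noncoding gene Gm36544, far toward higher coordinates and with few reads, had the same exact permutation adjusted p. It held 0.118% ± 0.0571 and 0.0369% ± 0.0582, higher from P1 in 1 of 8 pairs (log2 -2.49). Of the other listed neighbours that did not pass, Dnajc24 had a log2 ratio of 0.29, Immp1l 0.17, Eif3m 0.17, Rcn1 0.07, Qser1 -0.08, Prrg4 -0.08, Dcdc5 -0.13, Wt1 -0.21, Ccdc73 -0.22, the noncoding gene 4930527A07Rik -0.26 and the noncoding gene Gm35946 -0.64. With each listed fragment counted once, whatever its reads, the ratios of Pax6, Elp4 and Immp1l were -0.073, -0.013 and -0.029. Eif3m, Rcn1, Qser1 and Prrg4 changed sign when single libraries were left out.

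Each bait also read the other promoter, in a stretch left out of the windows. In the P0 files, the reads within 1 kb of the P1 centre equalled 0.89% ± 0.27 (SD, n = 8) of the chromosome 2 reads beyond 5 kb of either centre, a total that does not include them. In the P1 files, the reads within 1 kb of the P0 centre equalled 1.18% ± 0.35 of that total. The stretch of the Paupar viewpoint, chr2:105660480-105662320, held 2.64% ± 0.85 from P0 and 0.80% ± 0.29 from P1. Its position was inferred as the widest gap between listed fragments near Paupar in that viewpoint's own files. That stretch lies partly inside the called Paupar window and partly in the stretch left out, so its values are not independent of that window. None of these 3 stretches was tested by itself. By the authors' q-values per fragment, a file had 10 to 49 fragments under 0.05 within the 2 Mb. In the P0 files 8 to 16 of them lay at lower and 0 to 12 at higher coordinates, and in the P1 files 0 to 15 and 15 to 34. Fragments under 0.05 in all 8 libraries lay 6.5 to 5.58 kb below P0 in the P0 files and 11.9 to 16.3 kb above P0 in the P1 files.

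Within cell types, the same few windows near the promoters were called as over all pairs, and none in ES. Each cell type has 2 pairs, which alone cannot give an exact sign p below 0.5, so the spread was taken over all 8 pairs. In ES, 0 of 373 windows (0%) passed in edgeR, with 8 at an unadjusted p under 0.05. In NSC, 2 passed (0.536%): the Pax6 gene body window (log2 2.17, SE 0.37) and the window 44.2 kb below P0 (log2 -1.78, SE 0.48). In neuron, 3 passed (0.804%): the Pax6 gene body window (log2 1.44), the Paupar window (log2 -1.59) and the window next to it at 14.2 kb (log2 -1.52). In N2a, 2 passed (0.536%): the Paupar window (log2 -2.34) and the Pax6 gene body window (log2 1.56). None of these windows passed the test of a difference between cell types after adjustment over 373 windows. Unadjusted edgeR p-values in that test were 0.025 for the Pax6 gene body window and 0.032 for the window 44.2 kb below P0. They were 0.075 for the Paupar window and 0.184 for the window at 14.2 kb. With 2 pairs per cell type, this does not show that the cell types were alike there. The lower side held 48.2% and 50.6% of the P1 reads within 1 Mb in ES, and 33.1% to 41.2% in the 6 other libraries, a difference that was not tested.

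The difference between cell types itself passed in 2 of 373 windows (0.536%), both farther from the promoters, and in 11 at an unadjusted p under 0.05; DESeq2 called 0. The window at chr2:105561776-105566775, 104 kb below P0 in Pax6os1, had log2 ratios of -1.98 (SE 0.96) in ES, -3.05 (SE 1.05) in NSC, 0.58 (SE 0.88) in neuron and 2.93 (SE 1.01) in N2a (edgeR adjusted p = 0.042). From P0 it held 0.186% and 0.169% in ES, 0.0934% and 0.510% in NSC, 0.233% and 0.0889% in neuron, and 0.00408% and 0.0454% in N2a. From P1 it held 0.0217% and 0.0897%, 0% and 0.105%, 0.240% and 0.198%, and 0.120% and 0.174%; the 0 reads of NSC replicate 1 allow a share of up to 0.0237%. Both ES and both NSC pairs were higher from P0, and both neuron and both N2a pairs were higher from P1.

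The other window, chr2:106001776-106006775 in Dnajc24, a gene of the diphthamide synthesis pathway, lay 336 kb above P0. Its log2 ratios were -2.01 (SE 0.77) in ES, -1.92 (SE 0.80) in NSC, 0.07 (SE 0.75) in neuron and 2.58 (SE 0.89) in N2a (edgeR adjusted p = 0.042). From P0 it held 0.115% and 0.523%, 0.355% and 0.429%, 0.306% and 0.169%, and 0.00408% and 0.210% in ES, NSC, neuron and N2a. From P1 it held 0.0453% and 0.0803%, 0.0316% and 0.246%, 0.169% and 0.340%, and 0.285% and 0.340%. The neuron pairs went opposite ways, and N2a replicate 1 was close to 0 from P0. Neither call held with windows of 2, 10 or 20 kb or with the grid moved by 2.5 kb, and the count of such windows was 0 to 5 when single libraries were left out. The next windows in that test, chr2:106191776-106196775, chr2:105236776-105241775 and chr2:105521776-105526775, did not pass.

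**Figure D4:**
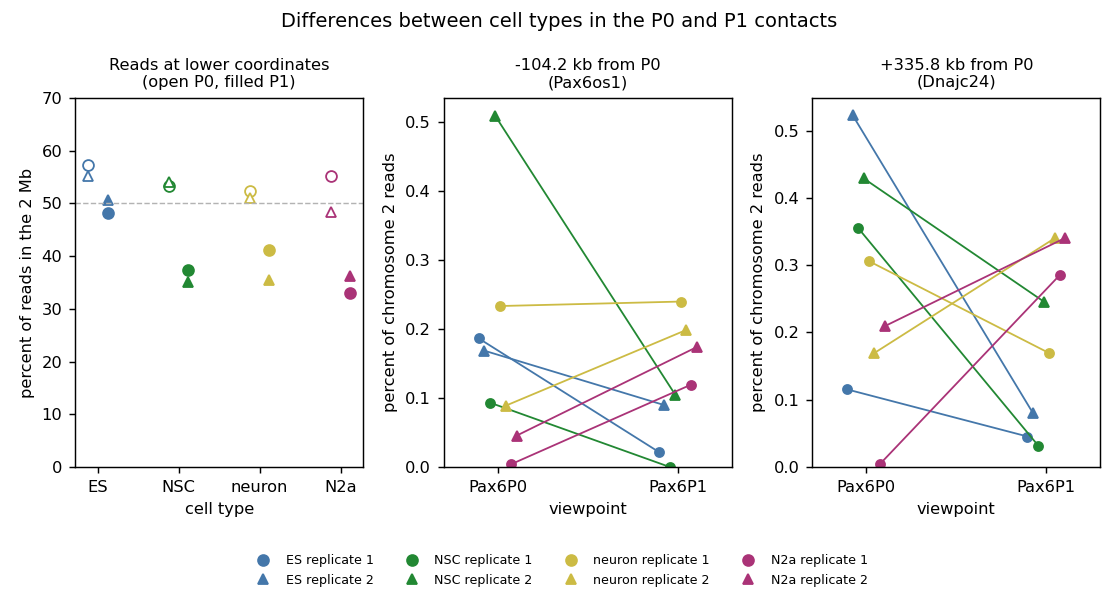
Share of reads within 1 Mb at lower coordinates from P0 (open) and P1 (filled), and shares of chromosome 2 reads in the 2 windows whose ratio differed between cell types, 1 point per library. The ES points from P1 lie at 48.2% and 50.6%, above the 33.1% to 41.2% of the other libraries. In both windows the ES and NSC lines slope down and the N2a lines up.

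Beyond 200 kb of the promoters, no window passed over all 8 pairs. There, the libraries' ratios had a mean Spearman correlation of 0.03 within a cell type and 0.06 between cell types over 298 windows, and within 200 kb of 0.22 and 0.19 over 75 windows; the windows of a library share its depth and baits, so these are descriptions. The 8 P0 and 8 P1 files did not overlap in 4 of 373 windows (1.07%). 13 windows (3.49%) were lower from P1 in all 8 pairs and 2 (0.536%) higher. At the far end, chr2:106626776-106631775 held 62 reads from P0 and 1 from P1, a ratio of 60.7 (95% exact interval 10.5 to 2437, counting error only), and did not pass (edgeR adjusted p = 0.054). This window was named for its small p and passed the read filter through its P0 reads alone. Its ratio and interval therefore do not estimate a preference.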

How the data were processed

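The members, windows, bands and gene list were chosen with earlier results of these data known. Trim Galore, Bowtie and the build mm10 are named in the submitters' processing notes; their versions, the enzyme, read assignment, duplicate removal and the caller are not given there or in the labels. The deposited tables hold counts, whole reads per restriction fragment as the authors gave them, and a q-value per fragment by the authors, used only to describe fragments.

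Reads were summed by fragment midpoint in 5 kb windows. Library size was the chromosome 2 reads beyond 5 kb of either centre, 10701 to 59018 per file, with no factor. Windows passing filterByExpr (minimum count 10) were tested with edgeR 4.0.16 (R 4.3.3, robust quasi-likelihood) in models with library as the pair and viewpoint, overall or by cell type, adjusted by Benjamini-Hochberg over 373 windows at 0.05. The pairing comes from both baits being read in the same library; the deviations of a library's P0 and P1 files from their cell type's means correlated by 0.0024 to 0.079. Bands, genes with at least 10 reads per file on average and the share within 1 Mb were tested by exact sign permutation of log2 shares (pseudocount 0.5 reads; python 3.11.15, numpy 2.4.6), and between cell types by exact permutation of the labels.

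Windows named are those called, those of smallest p up to 10 in all, the 5 of smallest p between cell types and up to 3 called per cell type; genes are those overlapping named windows and listed neighbours. Depdc7, Gm35946 and Gm36544 were named after their values were seen. On simulated counts for the 8 pairs, 2 of 20 windows changed by 2-fold, 12 of 20 by 4-fold and 20 of 20 by 8-fold were recovered, with 1 false call among 313. Every simulated window had the same fitted spread and no differences between libraries, so recovery in windows of smaller spread was not measured. Alternatives were TMM, DESeq2 1.42.0, no filter, other windows, other stretches left out, other totals, a distance offset, other read counting, other blocks and each library left out. A curved distance offset was chosen after seeing the data.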

Additional observations from a re-analysis of the deposited data

Results flagged for a closer look

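Of 41 sets of 8 log2 ratios checked, 3 had a library far from the others, where chance alone flags about 1 in 20 sets. In the window at chr2:105646776-105651775, neuron replicate 2 had a log2 ratio of -2.09 against a median of -0.81 in the other libraries. In the window at chr2:106191776-106196775, N2a replicate 1 had 4.99 against -1.18. In the gene body of Gm35946, N2a replicate 1 had -2.54 against -0.46. The difference in the P1 to P0 ratio between cell types passed in the windows at chr2:105561776-105566775 (edgeR adjusted p = 0.0415) and chr2:106001776-106006775 (edgeR adjusted p = 0.0423).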

How the results depend on the processing

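Of the 6 windows called over all pairs, DESeq2 gave 18 (10 higher from P0, 8 from P1), 20 kb windows 3 (0 from P1), 20 kb left out around each centre 1 (1 from P0, 0 from P1), and 0 in both directions with the straight or the curved distance offset, with the fewest reads that could give a run of adjacent fragments, or with each listed fragment counted once. 10 kb windows and the grid moved by 2.5 kb each gave 1 higher from P1. Leaving out each library gave 2 to 7 windows (1 to 5 from P0, 1 to 3 from P1), with 2 without NSC replicate 2. Between cell types the count of 2 became 0 with DESeq2, 2, 10 or 20 kb windows, the moved grid, fewest reads, listed fragments and the replicate block by viewpoint, 1 with 10 kb left out, and 0 to 5 with single libraries left out, the 5 without N2a replicate 2.

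Per cell type, ES stayed at 0 in all 24 alternatives. NSC gave 1 with TMM, no filter, 2 kb windows, reads within the 2 Mb as total, the distance offset, no replicate block and the replicate block, 4 with 10 kb windows, 0 with 20 kb windows, the moved grid, 10 or 20 kb left out, fewest reads, listed fragments and the curved offset, and 1 to 2 with single libraries left out. Neuron gave 1 with 10 kb left out, 0 with 2 or 20 kb windows, the moved grid, 20 kb left out, both offsets, fewest reads and listed fragments, and 0 to 4 with single libraries left out. The 0 came without either neuron replicate. N2a gave 7 with DESeq2, 5 with 10 kb windows, 5 with no replicate block, 1 with 2 kb windows, 0 with the moved grid, 20 kb left out, both offsets, fewest reads and listed fragments, and 2 to 6 with single libraries left out, the 6 without N2a replicate 2.

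The 5 bands became 3 with fewest reads, 2 with own centres, 2 with no replicate block, 0 with listed fragments or the distance line taken out, and 4 to 5 with single libraries left out. Gene bodies went from 0 to 5 with fewest reads. With each library left out 0 passed, but fewer pairs raise the smallest exact p the test allows. That 0 therefore does not show that the result is stable. Pax6, Paupar and Pax6os1 then had exact permutation adjusted p-values from 0.073 to 0.109. The log2 share within 1 Mb was -0.069 with no replicate block (exact permutation p = 0.446) and -0.082 to -0.060 with single libraries left out (exact permutation p 0.031 to 0.094).

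Signs turned with listed fragments for the Pax6 gene body window (-0.085; neuron -0.28, N2a -0.15), the window after it (-0.081), the window at chr2:105621776-105626775 in NSC (0.0074), the bands higher at 10 to 50 kb (-0.060), 50 to 100 kb (-0.040) and 200 to 500 kb (-0.081), and the bodies of Pax6 (-0.073), Elp4 (-0.013) and Immp1l (-0.029). On the moved grid, the window sharing only the upper part of the Elp4 window had a ratio below 0 (-0.13). The distance line turned the band lower at 500 to 1000 kb (0.0064), higher at 500 to 1000 kb (0.042), Qser1 (0.043) and Prrg4 (0.048). Fewest reads turned the band higher at 200 to 500 kb (-0.021), and reads within the 2 Mb as total that at 500 to 1000 kb (0.012). With single libraries left out, the band higher at 200 to 500 kb ranged from -0.034 to 0.048, that at 500 to 1000 kb from -0.15 to 0.020, Qser1 from -0.54 to 0.20, Prrg4 from -0.38 to 0.17, Eif3m from -0.28 to 0.64 and Rcn1 from -0.078 to 0.28. Counting listed fragments ignores the reads per fragment, so the turns in that setting cannot show that a preference in reads was reversed. The causes were not tested.

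Deviations of the P1 to P0 ratio in libraries of equal replicate number correlated by -0.07 to 0.10 over 6 pairs of cell types. A shift shared by both files of a library cancels in that ratio. These values therefore cannot show whether replicate numbers pair libraries across cell types. On simulated counts in which every window had the same spread, a coefficient of variation of 75.0%, 2 of 20 windows changed by 2-fold were recovered. That share does not hold for windows of smaller spread, such as those called near the promoters.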
